A study of Mus musculus with 4 samples.

Results

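The semaphorin, plexin, neuropilin, ephrin, Eph, Slit, Robo, netrin and Unc5 genes, the classical axon guidance families, were described in bone marrow mesenchymal stromal cells (MSCs). They were taken by a rule on gene symbols that uses no measured value, and 68 of the 56980 genes in the count table carry such a symbol. Poly(A) RNA was sequenced from MSCs of 4 male wild-type mice aged 14 weeks, of the strain C57BL/6J kept inbred in-house for 30 years. The cells were flushed and digested from bone and sorted as positive for CD51 and PDGFRa and negative for CD45, Ter119, CD31 and Sca1, then processed by a full-length cDNA protocol in pools of 100 cells. Each mouse gave 1 library, all 4 libraries form 1 group, and no treated or mutant MSCs are compared here. In such bulk pools, fewer cells of a type and less RNA per cell cannot be told apart, and a p-value covers only the spread between these 4 mice.

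The guidance families were first described in the growing nervous system, where they attract or repel the tips of axons. Semaphorins signal through plexins, and the secreted class 3 semaphorins mostly need a neuropilin as co-receptor. Ephrins are bound to the membrane and are read by Eph receptor kinases on a touching cell, and the ephrin can signal backwards into its own cell. Slits are secreted ligands of the Robo receptors, and netrins are secreted ligands of Dcc, neogenin and the Unc5 receptors. In bone, members of these families are known from the exchange between osteoclasts and cells of the osteoblast lineage, among them Sema3a, Sema4d with Plxnb1, and ephrin-B2 with EphB4.

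The libraries held between 22738604 and 43545349 counts on genes. The identity of the cells was checked with marker genes. All 8 stromal markers were above 1 TPM in every mouse, Pdgfra at 30.7 to 48.2 TPM and Cxcl12, the chemokine that retains blood stem cells in the marrow, at 983 to 4329 TPM. Here TPM, a relative transcript abundance, is the count per exon length of a gene, scaled to a sum of 1000000 per library, so that levels of different genes can be compared. Osteoblast markers were also high and summed to 77792 to 168024 TPM, most of it from Bglap (osteocalcin). Cdh5, Kdr and Tie1 of endothelial cells and Adgre1, Csf1r and C1qa of macrophages were at 0 in all mice. The summed endothelial markers reached 0.235 TPM and the summed macrophage markers 6.63 TPM at most. Erythroid markers summed to 35.0 TPM in mouse 2 and to 4885 TPM in mouse 1 and the adipocyte markers were highest in mouse 2 (962 TPM against 199 to 439 TPM). The pericyte and smooth muscle markers summed to 2.08 to 29.6 TPM, and they did not move together: in mouse 2 Rgs5 was highest (29.1 TPM) and Cspg4 lowest (0.558 TPM), with Acta2 and Myh11 at 0. Osteocyte markers summed to 491 to 2246 TPM with Sost at 0, chondrocyte markers to 219 to 352 TPM, Schwann cell markers to 17.6 to 68.9 TPM, neutrophil markers to 4.09 to 30.7 TPM, megakaryocyte markers to 0 to 7.95 TPM and B cell markers to 0 to 1.46 TPM. Of the genes behind the negative gates, Ly6a, which encodes Sca1, was at 0.0472, 8.95, 0 and 11.6 TPM in mice 1 to 4, while Ptprc (CD45) and Pecam1 (CD31) reached 0.264 and 0.218 TPM at most. The part of these other cell types in the levels below was not tested.

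Expressed here means a median over the 4 mice above 1 TPM, the cutoff the study applied to ligands and receptors of MSCs. By this rule 33 of the 68 guidance genes (48.5%) were expressed. Of all 52125 genes with a known exon length 22.9% passed, and of the 21922 protein-coding genes, the fitting background since all 68 members code for protein, 44.2% passed. A median above 5 TPM was reached by 19 members (27.9%, background 30.4%), and 21 members were above 1 TPM in every mouse (30.9%, background 30.1%). At the other end, 18 members (26.5%) had at most 3 counts in every mouse, against 38.1% of protein-coding genes, and 9 of them had no count at all, which allows up to 3 counts per library. The shares of expressed members were thus near those of any protein-coding gene. Ligands and receptors were about evenly present, with 16 of 35 ligands and 17 of 33 receptors expressed. Summed over all members, the level was 615, 434, 544 and 371 TPM in mice 1 to 4.

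**Figure D1:**
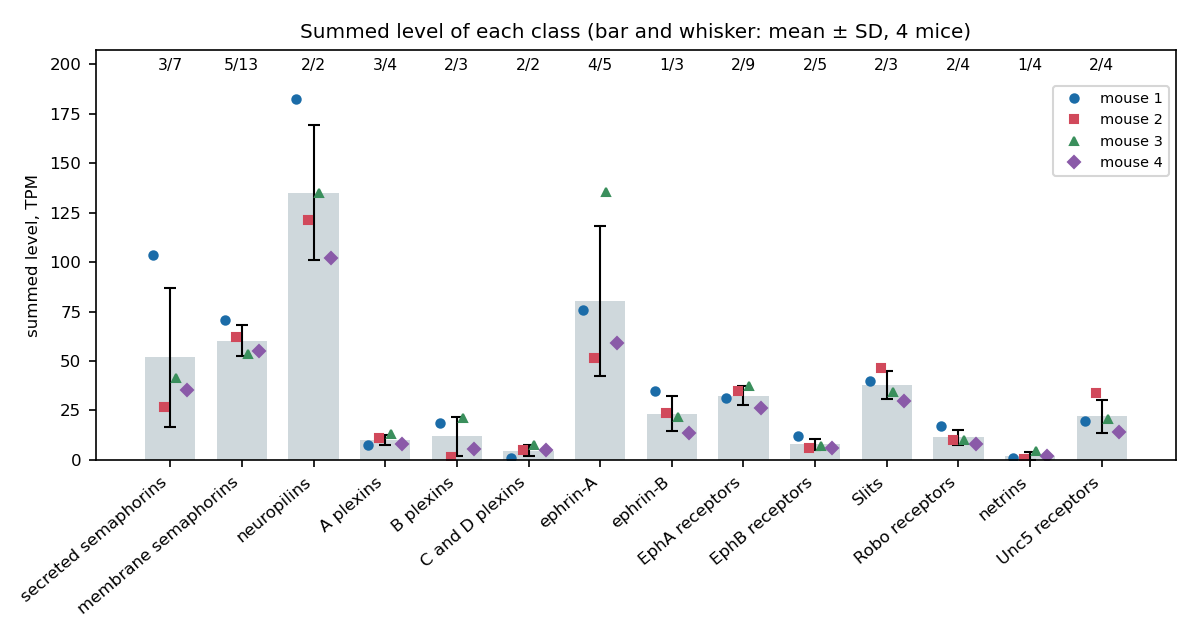
Summed level in TPM (vertical axis, linear from 0) of the 14 classes of guidance genes, with a point for each mouse, a bar for the mean and a whisker for the SD over 4 mice. The numbers above the bars give expressed members of all members, and the neuropilins (102 to 182 TPM) and ephrin-A ligands (51.6 to 135 TPM) were the highest classes.

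Start sites of members at both ends of this range are printed to show the sequence around the RefSeq start of genes that were high and of genes that were hardly read. The windows are those of RefSeq on GRCm38.p6, from 250 bases before to 50 bases after the start, 5′ to 3′ on the strand of the gene. Nrp2 and Slit3 stand for high members, and Efnb1 and Efnb2 for a pair of related ligands of which the first was read in every mouse and the second gave at most 4 counts. Capitals mark every CG dinucleotide. The windows are chr1:62703067-62703366 (plus strand), chr11:35121206-35121505 (plus), chrX:99135811-99136110 (plus) and chr8:8661193-8661492 (minus).
Nrp2: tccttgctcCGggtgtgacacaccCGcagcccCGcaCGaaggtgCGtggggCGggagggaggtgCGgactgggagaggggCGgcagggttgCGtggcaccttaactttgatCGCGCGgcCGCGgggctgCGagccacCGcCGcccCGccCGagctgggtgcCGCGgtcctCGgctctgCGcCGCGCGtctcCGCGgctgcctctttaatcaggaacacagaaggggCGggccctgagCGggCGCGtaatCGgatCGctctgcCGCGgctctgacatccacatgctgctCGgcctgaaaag
Slit3: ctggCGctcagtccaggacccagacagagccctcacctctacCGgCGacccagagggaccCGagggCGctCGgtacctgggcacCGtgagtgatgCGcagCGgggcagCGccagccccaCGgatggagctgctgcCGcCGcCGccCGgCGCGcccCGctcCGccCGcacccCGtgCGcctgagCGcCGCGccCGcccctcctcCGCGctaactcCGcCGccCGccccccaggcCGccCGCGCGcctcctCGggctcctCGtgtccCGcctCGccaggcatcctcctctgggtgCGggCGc
Efnb1: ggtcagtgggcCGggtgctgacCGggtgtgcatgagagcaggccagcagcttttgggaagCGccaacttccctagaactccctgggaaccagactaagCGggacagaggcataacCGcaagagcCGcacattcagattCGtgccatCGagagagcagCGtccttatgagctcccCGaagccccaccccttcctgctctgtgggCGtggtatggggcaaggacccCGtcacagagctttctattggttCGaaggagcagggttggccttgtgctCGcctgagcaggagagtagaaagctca
Efnb2: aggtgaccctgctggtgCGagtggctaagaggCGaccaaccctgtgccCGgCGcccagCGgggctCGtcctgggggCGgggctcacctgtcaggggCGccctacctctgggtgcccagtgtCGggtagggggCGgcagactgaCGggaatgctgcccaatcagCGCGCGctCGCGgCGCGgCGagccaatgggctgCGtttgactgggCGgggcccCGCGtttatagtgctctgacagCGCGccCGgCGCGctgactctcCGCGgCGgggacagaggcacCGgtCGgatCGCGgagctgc

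The window of Efnb2 held 35 CG dinucleotides and that of the expressed Efnb1 14. Nrp2 had 37 and Slit3 41. A GC box, searched as GGGCGG or its reverse complement CCGCCC, occurred 5 times in the window of Nrp2, 6 times in Slit3, 3 times in Efnb2 and not in Efnb1. In the annotation used for exon lengths, the Efnb1 window lay wholly before its gene, while the Efnb2 window reached into its gene. The Slit3 window lay mostly inside its gene, and the Nrp2 window lay mostly before its gene and reached into it. The printed windows thus cover unlike positions. Their counts cannot show whether CG or GC boxes order these members, Efnb1 and Efnb2 among them, by level. Windows were found for 59 of the 68 members. The median number of CG was 23 in the 31 expressed members with a window and 15 in the 15 members with at most 3 counts. Protein-coding genes with at most 3 counts had a median of 3, expressed protein-coding genes 21, protein-coding genes in all 14, and all 32851 windows in the RefSeq set 7. A GC box was present in 74.2% of expressed members and in 66.7% of the members with at most 3 counts, beside 71.3% of expressed protein-coding genes, 23.9% of protein-coding genes with at most 3 counts, 50.8% of all protein-coding genes and 35.7% of all windows. The expressed members were thus near expressed protein-coding genes in both measures. The members that were hardly read lay above protein-coding genes with at most 3 counts in both measures. Their CG median was near that of protein-coding genes in all, and single members ranged from 2 to 56 CG. A match is a description of the letters and no evidence of a bound factor.

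Among the secreted class 3 semaphorins 3 of 7 were expressed. Sema3b, a repellent ligand that signals through neuropilins, was at 77.7, 20.04, 25.3 and 14.7 TPM in mice 1 to 4 (34.5 ± 29.2 TPM, mean ± SD, n = 4). Sema3d, another secreted ligand of neuropilins, was at 25.3, 4.602, 14.2 and 18.8 TPM (15.7 ± 8.72 TPM). Sema3b was highest in mouse 1, the library with the highest erythroid markers, whose part was not tested, while Sema3d was lowest in mouse 2. Sema3a, the class 3 ligand known to protect bone, was lowest in mouse 1 (0.135 TPM) and highest in mouse 2 (2.10 TPM) and was above 1 TPM in 3 of 4 mice. Sema3e, the ligand of Plxnd1, stayed below 1 TPM in every mouse. Sema3c and Sema3f, ligands of the neuropilins, had at most 1 count, and Sema3g had none.

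Of the 13 membrane-bound semaphorins 5 were expressed, and all 5 were above 1 TPM in every mouse. Sema4d, the ligand of Plxnb1 that is known as an osteoclast product restraining bone formation, was the highest of them by median, at 32.1, 23.8, 15.6 and 11.04 TPM (20.6 ± 9.27 TPM). Sema5a, which carries thrombospondin repeats, was at 11.04, 13.1, 10.02 and 16.9 TPM (12.8 ± 3.06 TPM). Sema4b, a class 4 membrane protein, was at 13.7, 7.28, 13.0 and 10.4 TPM (11.1 ± 2.91 TPM). The order of Sema5a and Sema4b differed between mice, so these neighbours were not separated by their spread. Sema6d, a ligand of Plxna1, was at 5.598, 10.4, 5.14 and 8.77 TPM (7.49 ± 2.55 TPM). Sema7a, the GPI-anchored semaphorin that binds Plxnc1 and integrins, was at 6.86, 4.55, 9.58 and 6.98 TPM (6.99 ± 2.06 TPM). Near-identical stretches in other genes cover 5.73% of the longest transcript of Sema3a and 3.72% of that of Sema4b, so reads there are uncertain. Sema6b, a class 6 membrane protein, was above 1 TPM in mice 1 and 2 only, at most 2.76 TPM in mouse 2. Sema4c, Sema4g and Sema6a stayed below 1 TPM in every mouse, and Sema4a, Sema4f, Sema5b and Sema6c had no count.

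Secreted and membrane-bound semaphorins were not in the same order in every mouse. The secreted class summed to 104, 26.8, 41.4 and 35.6 TPM and the membrane class to 70.5, 62.0, 53.6 and 55.3 TPM. The secreted class was lower in 3 mice and higher in mouse 1, where Sema3b was high. On the scale log2(summed TPM + 1) the difference of secreted minus membrane was -0.41 ± 0.72 (SD, n = 4, exact two-sided sign-flip permutation test p = 0.375, adjusted p = 0.4375). The p-values were adjusted by Benjamini-Hochberg over 7 such comparisons within mice, and with 4 mice this test cannot give less than 0.125.

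Nrp2 was the most abundant of all guidance genes. Neuropilins are co-receptors of class 3 semaphorins and of VEGF, and both were read at high level in every mouse. Nrp2 (chr1:62703285-62818695, GRCm38) was at 166, 101, 113 and 89.9 TPM (117 ± 33.8 TPM) and took 20.7% to 26.98% of the summed level of all 68 members. Its median stood at the 96.1st percentile of protein-coding genes. Nrp1, which binds Sema3a and VEGF, was at 16.4, 20.2, 22.0 and 12.2 TPM (17.7 ± 4.32 TPM). Every value of Nrp2 lay above every value of Nrp1, and Nrp2 made up 83.3% to 91.0% of the neuropilin level. Nrp1 minus Nrp2 was -2.66 ± 0.47 in log2(TPM + 1) and negative in 4 of 4 mice (exact sign-flip permutation p = 0.125, the smallest possible, adjusted p = 0.175). Taking the longest transcript as gene length raised Nrp1 to a mean of 37.1 TPM and narrowed the difference to -2.09.

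Most plexins, the signalling receptors of semaphorins, were present at a low level, with 7 of 9 expressed but only Plxna1 and Plxnb1 above 1 TPM in every mouse. Plxna1, a partner of neuropilins and receptor of class 6 semaphorins, was at 5.94, 6.39, 4.80 and 4.61 TPM (5.43 ± 0.868 TPM). Plxnb1, the receptor of Sema4d, was at 10.2, 1.46, 6.97 and 4.19 TPM (5.71 ± 3.76 TPM). Plxna1 was thus even across mice, whereas Plxnb1 was low in mouse 2. Plxnb2, a receptor of class 4 semaphorins, was lowest in mouse 2 (0.140 TPM, 12 counts) and highest in mouse 3 (14.4 TPM). Plxnd1, the receptor of Sema3e, ranged from 0.405 to 5.71 TPM and Plxna2, a receptor of Sema6a, from 0.406 to 8.22 TPM. Plxnc1, the receptor of Sema7a, ranged from 0 in mouse 2 to 3.96 TPM in mouse 4, and Plxna3, a neuropilin partner, was lowest in mouse 3 (0.00734 TPM, 1 count) and highest in mouse 4 (2.85 TPM). Plxna4 stayed below 1 TPM and Plxnb3 had no count. The annotated exons of Plxna1 share 10.7% of their bases with the antisense gene Gm26811, which had 57 counts in mouse 4 and none in the others, and those of Plxnb1 share 2.68% with the antisense gene Gm7628, which had 152 counts in mouse 1. Counting used no strand, so reads that lie only in these stretches cannot be assigned to either gene.

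A plexins and B plexins could not be ordered. The A class summed to 7.72, 10.97, 13.3 and 7.90 TPM and the B class to 18.8, 1.602, 21.4 and 5.59 TPM. B plexins were higher in mice 1 and 3 and lower in mice 2 and 4. The difference A minus B was 0.20 ± 1.49 in log2(summed TPM + 1), positive in 2 of 4 mice (exact sign-flip permutation p = 0.875, adjusted p = 0.875). Without mouse 2 it was -0.46.

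**Figure D2:**
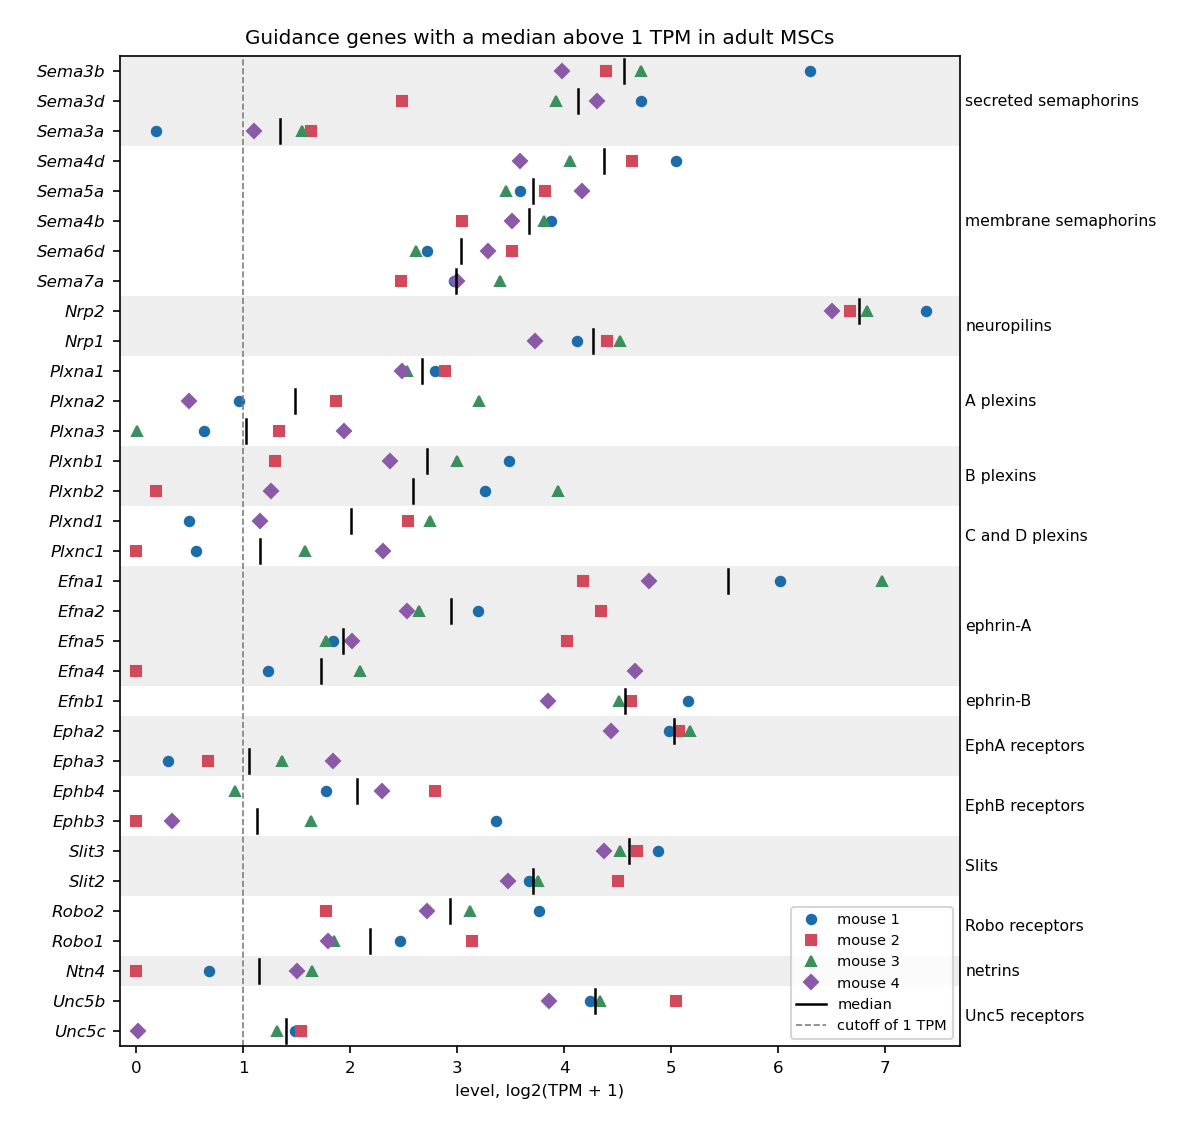
Levels of the 33 expressed guidance genes, ordered by class (rows), as log2(TPM + 1) on the horizontal axis, with a point for each of the 4 mice and a bar for the median. Genes such as Nrp2, Slit3 and Plxna1 have closely spaced points, while Plxnb2 (0.140 to 14.4 TPM) and Ephb3 (0 to 9.30 TPM) range across the dashed cutoff of 1 TPM.

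Ephrins were read at different levels from member to member. Of the GPI-anchored ephrin-A ligands 4 of 5 were expressed and of the transmembrane ephrin-B ligands only Efnb1. Efna1 (chr3:89271733-89281142), a preferred ligand of EphA2, was at 63.7, 17.1, 124 and 26.7 TPM (57.9 ± 48.6 TPM), a 7.27-fold range between mice. Efna2, another ligand of EphA receptors, was at 8.14, 19.3, 5.27 and 4.77 TPM (9.36 ± 6.77 TPM). Efna1 was highest in mouse 3 and Efna2 in mouse 2, the only mouse in which Efna2 exceeded Efna1. Efna5, a ligand of EphA3, ranged from 2.43 to 15.3 TPM, with mouse 2 far above the others. That library also held the highest adipocyte markers and the highest summed stromal markers (4706 TPM against 1124 to 2431 TPM). Most of the stromal sum came from Cxcl12, and the stromal marker Prrx1 was lowest there. The part of either marker group was not tested. Efna4, also an EphA ligand, ranged from 0 in mouse 2 to 24.4 TPM in mouse 4. Efna3 had no count. Efna4 shares 10.5% of its exon bases with the antisense gene 4731419I09Rik, which had no count.

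Efnb1 (chrX:99136130-99148991), a ligand of EphB receptors that can signal into its own cell, was at 34.6, 23.7, 21.9 and 13.4 TPM (23.4 ± 8.70 TPM). It made up 99.8% to 100% of the ephrin-B level. Efnb2, the partner of EphB4 in the exchange between osteoclasts and osteoblasts, had 1, 0, 4 and 0 counts in mice 1 to 4, and Efnb3 at most 1 count. Ephrin-A ligands summed to 75.7, 51.6, 135 and 58.9 TPM. The ephrin-B sum, 34.6, 23.7, 21.9 and 13.4 TPM, was lower in 4 of 4 mice. The difference ephrin-B minus ephrin-A was -1.71 ± 0.73 in log2(summed TPM + 1) (exact sign-flip permutation p = 0.125, adjusted p = 0.175). Counts scaled to 1000000 per library with no correction for length gave -0.98.

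Epha2 was the prevailing Eph receptor. Of 9 EphA receptors Epha2 and Epha3 were expressed, and of 5 EphB receptors Ephb3 and Ephb4. Epha2 (chr4:141301240-141329384), the receptor kinase that binds ephrin-A1, was at 30.6, 32.7, 35.1 and 20.6 TPM (29.8 ± 6.36 TPM) and made up 63.5% to 80.3% of the summed level of all Eph receptors. Ephb4, the receptor of ephrin-B2, ranged from 0.898 to 5.93 TPM. Ephb3, a receptor of B ephrins, was at 0 in mouse 2 and reached 9.30 TPM in mouse 1. Epha3, a receptor of ephrin-A5, ranged from 0.229 to 2.58 TPM. The less abundant receptors were thus far more uneven between mice than Epha2. The coefficient of variation (SD over mean) was 65.2% for Ephb4, 85.1% for Epha3 and 149% for Ephb3, against 21.4% for Epha2. Protein-coding genes with a mean of 1 to 5 TPM had a median of 98.8%, so Ephb4 and Epha3 lay below genes of like level and Ephb3 above. Epha1, an EphA receptor, and Ephb2, a receptor of B ephrins, were highest in mouse 4, at 2.96 and 1.90 TPM, and Ephb6, a receptor without kinase activity, was highest in mouse 3, at 3.01 TPM. The exons of Epha1 overlap those of Zyx on the other strand by 6.01% of their bases, and Zyx had 280 to 1019 counts. Epha4, Epha7 and Epha10 stayed below 1 TPM in every mouse, and Epha5, Epha6, Epha8 and Ephb1 had at most 2 counts.

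EphA receptors summed to 31.1, 34.7, 37.4 and 26.4 TPM, the most even of the receptor classes with a coefficient of variation of 14.7%. EphB receptors summed to 12.2, 5.93, 6.93 and 6.09 TPM and were lower in 4 of 4 mice. The difference EphB minus EphA was -1.97 ± 0.49 in log2(summed TPM + 1) (exact sign-flip permutation p = 0.125, adjusted p = 0.175).

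Slit2 and Slit3 were read in every mouse, Slit3 among the most even of the expressed members. Slit3 (chr11:35121224-35708507), a secreted ligand of Robo receptors that is also made by bone cells, was at 28.4, 24.6, 22.1 and 19.7 TPM (23.7 ± 3.71 TPM), a 1.44-fold range. Slit2, its relative, was at 11.7, 21.7, 12.5 and 10.1 TPM (14.0 ± 5.22 TPM). Slit3 exceeded Slit2 in every mouse, by little in mouse 2. This order depended on the gene length: with the longest transcript, Slit2 had a mean of 28.0 TPM and Slit3 of 21.5 TPM. Slit1 had at most 1 count.

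Of the Robo receptors Robo1 and Robo2, both of which bind Slit2 and Slit3, were above 1 TPM in every mouse. Robo2 was at 12.6, 2.42, 7.69 and 5.57 TPM (7.07 ± 4.28 TPM). Robo1 ranged from 2.47 to 7.83 TPM and exceeded Robo2 in mouse 2 only. Robo4, known from endothelial cells, had at most 2 counts, and Robo3 none. Slits summed to 40.1, 46.3, 34.5 and 29.8 TPM against 17.1, 10.3, 10.3 and 8.03 TPM for the Robo class. Slit minus Robo was 1.67 ± 0.37 in log2(summed TPM + 1) and positive in 4 of 4 mice (exact sign-flip permutation p = 0.125, adjusted p = 0.175). With the longest transcript as gene length the mean of Robo1 went from 4.35 to 7.43 TPM and that of Robo2 to 10.9 TPM, and the difference was then 1.40.

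For the netrin family the receptors were read and the ligands hardly. Unc5b (chr10:60762593-60831581), a netrin receptor that mediates repulsion, was at 17.9, 31.9, 19.1 and 13.5 TPM (20.6 ± 7.92 TPM) and made up 90.8% to 94.5% of the Unc5 level. Unc5c, a related receptor, was lowest in mouse 4 (0.0152 TPM, 3 counts) and highest in mouse 2 (1.92 TPM). Unc5d stayed below 1 TPM and Unc5a had no count. Among the netrins only Ntn4, which also binds laminins, had a median above the cutoff, with 0 to 2.13 TPM. Ntn5 was above 1 TPM in mouse 3 alone, at 1.33 TPM, and 23.4% of its exon bases overlap Sec1, which had no count. Ntn1 and Ntn3 stayed below 1 TPM in every mouse. Netrins summed to 0.893, 0.317, 4.64 and 2.01 TPM and Unc5 receptors to 19.7, 33.8, 20.6 and 14.3 TPM. Netrin minus Unc5 was -3.12 ± 1.25 in log2(summed TPM + 1) and negative in 4 of 4 mice (exact sign-flip permutation p = 0.125, adjusted p = 0.175).

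**Figure D3:**
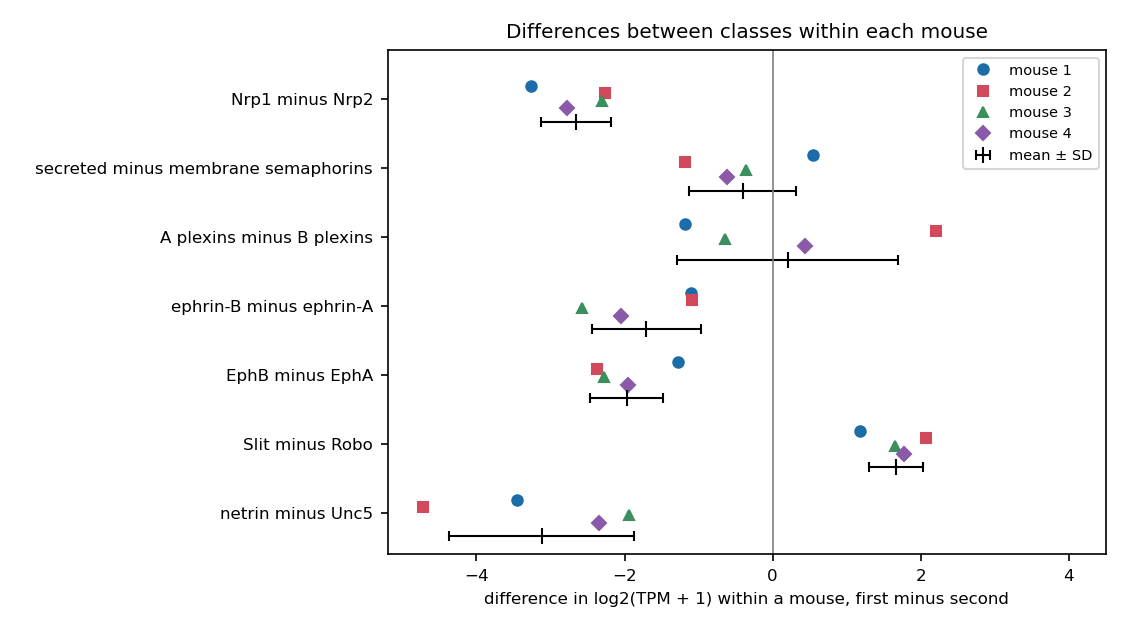
Differences between classes within each of the 4 mice (points) in log2 units on the horizontal axis, with the mean and SD below the points of each row. Nrp1, ephrin-B, EphB and netrin lie below their counterparts and Slits above Robo in 4 of 4 mice, while secreted minus membrane semaphorins (-0.41) and A minus B plexins (0.20) scatter around 0.

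Ligands and receptors were then read as pairs from a list of 39 known bindings, to see which could be complete within the MSC population itself. Both partners were expressed in 15 pairs and both were above 1 TPM in every mouse in 8 pairs. These 8 pairs were Sema4d with Plxnb1, Sema5a and Sema6d with Plxna1, Efna1 with Epha2, and Slit2 and Slit3 each with Robo1 and Robo2. The pairs share members and are not independent of each other. In 14 pairs only the receptor was expressed and in 5 only the ligand, and in the other 5 neither. Nrp2, with a median of 107 TPM, had none of its listed ligands Sema3c, Sema3f and Sema3g above 1 count in any mouse. The expressed Sema3b and Sema3d, named above as ligands of neuropilins, are not among the listed pairs. The list thus does not show whether Nrp2 lacked an expressed ligand. Ephb4, with a median of 3.17 TPM, lacked Efnb2, and Unc5b, with a median of 18.5 TPM, lacked Ntn1, which was below 1 TPM in every mouse. The list pairs Ephb4 and Unc5b with these ligands alone. Whether either lacked every expressed ligand is thus not shown. RNA levels in a pool of cells do not tell whether both partners were in the same cell.

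**Figure D4:**
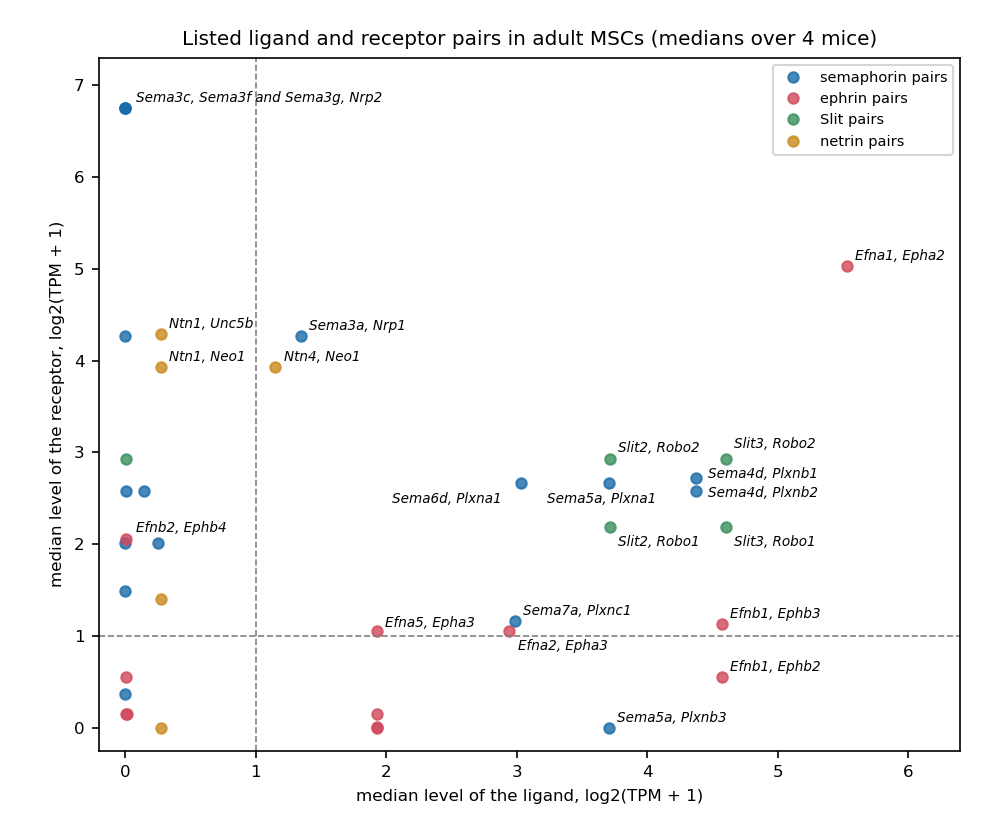
The 39 listed pairs, with the median level of the ligand on the horizontal axis and of the receptor on the vertical axis, both as log2(TPM + 1) over 4 mice, and dashed lines at 1 TPM. The 15 pairs at the upper right have both partners expressed, and the pairs of Nrp2 with Sema3c, Sema3f and Sema3g lie at the upper left with a ligand median of 0.

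Members differed strongly in how evenly they were read in the 4 mice. The coefficient of variation (CV, SD over mean) had a median of 31.7% over the 10 members whose mean lay between 10 and 30 TPM, against 49.0% for protein-coding genes in the same range. In the range of 30 to 200 TPM the background was 35.4%, and of the 3 members there Sema3b (84.7%) and Efna1 (83.9%) lay above it and Nrp2 (28.8%) below. From 1 to 5 TPM the median over members was 88.2% (13 members, background 98.8%) and from 5 to 10 TPM 65.8% (9 members, background 67.1%). Among the 35 members with a mean of at least 1 TPM, Slit3 at 15.6% and Plxna1 at 15.98% were the most even, and Efna4 at 159% and Ephb3 at 149% the most uneven. The error expected from counting alone was a median of 2.22% in the range of 10 to 30 TPM, and 7.24% in the range of 1 to 5 TPM. Counting error leaves out the sampling of cells and the amplification of cDNA.

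**Figure D5:**
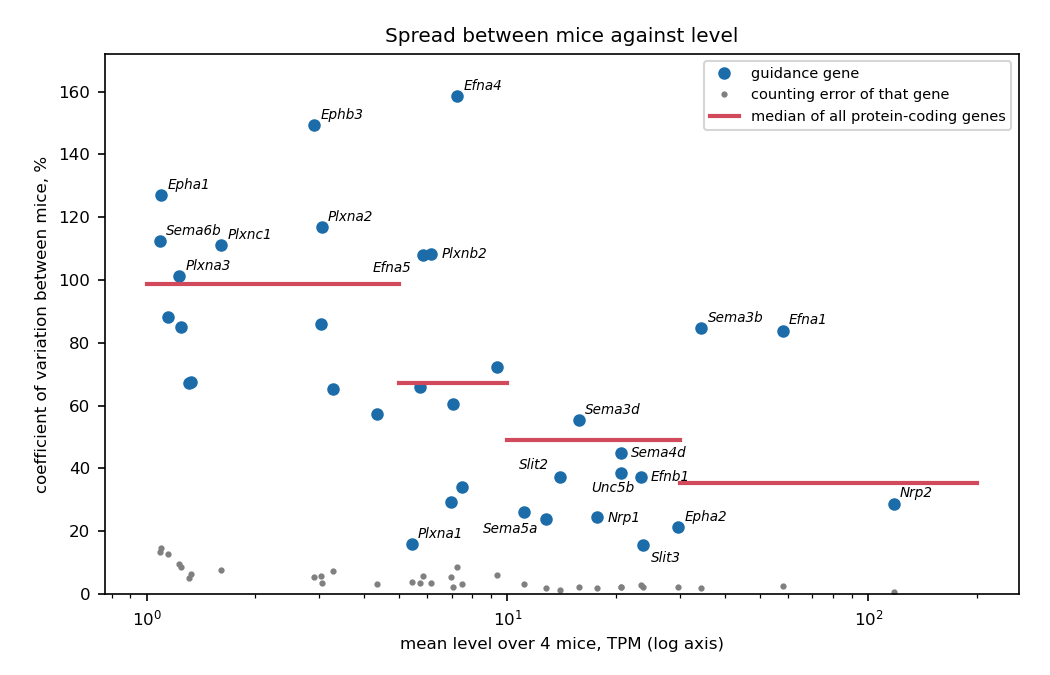
Coefficient of variation between the 4 mice (vertical axis, percent) against mean level in TPM (horizontal log axis) for the 35 guidance genes with a mean of at least 1 TPM, with the counting error of the same genes in grey and the median of protein-coding genes of like level as lines. Slit3 and Plxna1 lie lowest, near 16%, and Sema3b and Efna1 lie near 84%, above the line of 35.4%.

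Mouse 2 had the most expressed members without a count. Of the 33 expressed members 4 had no count in mouse 2, namely Efna4, Ephb3, Ntn4 and Plxnc1, and none was without a count in mice 1, 3 and 4. Of expressed protein-coding genes 8.75% had no count in mouse 2, 5.04% in mouse 4, 2.24% in mouse 1 and 1.10% in mouse 3. Counted by the cutoff of 1 TPM, 7, 6, 2 and 3 of the 33 members were not above it in mice 1 to 4. Of expressed protein-coding genes these were 9.04%, 16.9%, 4.38% and 12.5%. The share of members was larger than that background in mouse 1. In mice 2, 3 and 4 it was near the background, and 33 members are too few to read such gaps. Mouse 2 also had the fewest genes with a count, 16109 against 18683 to 18907 in the others, at a depth of 26050230 counts that was not the lowest. Among the expressed members 63.6% were above 1 TPM in every mouse, beside 68.1% of expressed protein-coding genes. Members are not replicates, and the part of the number of cells or of RNA quality in these gaps was not tested.

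Of 61 other genes of the guidance pathways 41 (67.2%) were expressed, beside 44.2% of protein-coding genes. Above 1 TPM in every mouse were 28 of these 61, a larger share than the 30.1% of protein-coding genes. The pathway genes were listed for their place in the pathways, and no test of the lists was made. The share differed from list to list. Among the effectors of Slits and netrins 13 of 14 were expressed, led by the small GTPases Cdc42, with a median of 331 TPM, and Rhoa, with 84.2 TPM. Of the semaphorin and plexin effectors 12 of 16 were expressed, led by the collapsin response mediator Dpysl3 at 65.0 TPM and the kinase Fyn at 35.1 TPM. Of the ephrin and Eph effectors 8 of 13 were expressed, led by the PDZ protein Sdcbp (syntenin) at 84.5 TPM and the adaptor Nck1 at 17.3 TPM. Other ligands and regulators were expressed in 5 of 8 cases, with the Slit-binding proteoglycan Gpc1 at 67.0 TPM and the protease Adam10, which cleaves ephrins, at 28.2 TPM. Of the other receptors and co-receptors 3 of 10 were expressed, led by integrin beta-1 (Itgb1) at 175 TPM and neogenin (Neo1) at 14.2 TPM, while Met, Kdr and L1cam had no count.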

How the data were processed

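The authors sequenced cDNA of sorted MSCs and deposited 1 table of raw counts per gene for 4 mice. The submitters' processing notes name STAR 2.7.10, GRCm39 and featureCounts of Subread 1.6.5, and the Supplementary Methods give no strand option. The main Methods list another pipeline for the same panel, and the description specific to MSCs was taken. TPM was computed in Python 3.11.15 with pandas 2.3.3, numpy 2.4.6 and scipy 1.17.1, from merged exon lengths of GENCODE M21 (GRCm38), matched by Ensembl gene ID without converting coordinates. A length that differs between GRCm38 and GRCm39 shifts the TPM of that gene in proportion. Genes with a length held 96.1% to 98.2% of the counts, and 3 counts were worth 0.0689 to 0.132 of a library scaled to 1e+06 counts. PCR copies are not independent molecules, so counting errors cover counting only. Classes were summed within a mouse and compared with exact two-sided sign-flip permutation tests. The rule for members uses symbols only, but it and the lists were chosen with earlier results of these data known. Members with a median above 5 TPM are given in every mouse, from 1 to 5 TPM by range, with only 1 library or more above 1 TPM by the highest library, and otherwise by name, and of other pathway genes the highest 2 per list. Alternatives were the gene length, the denominator, TMM factors (edgeR 4.0.16), the pseudocount, the cutoff and leaving out a mouse. Near-identical copies were searched with BLAST at 95% identity over 100 bases, for the members with a library above 1 TPM, and none of these shared such a stretch with another member. The code was tested on simulated data.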

Additional observations from a re-analysis of the deposited data

Results flagged for a closer look

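In 4 of 54 tested values (levels of the expressed members, class sums and differences between classes over 4 mice), the highest mouse lay so far from the others that its gap to the nearest, divided by the whole range, passed the 95% critical value of Dixon. Chance alone gives about 1 in 20, or 2.7 of 54, if the values are independent and normally distributed. Here genes, class sums and differences overlap, and levels and sums were tested as TPM without a logarithm. The chance count is thus only a rough guide. Sema3b was far higher in mouse 1 (77.7 TPM) than in the others (14.7 to 25.3 TPM), with a gap of 0.833 of the range. Efna5 was far higher in mouse 2 (15.3 TPM against 2.43 to 3.05 TPM, gap 0.952). Efna4 was far higher in mouse 4 (24.4 TPM against 0 to 3.26 TPM, gap 0.866). The summed EphB receptors were higher in mouse 1 (12.2 TPM against 5.93 to 6.93 TPM, gap 0.840), where Ephb3 was highest.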

How the results depend on the processing

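Of the 7 comparisons between classes, 6 kept their direction under all 9 alternatives each: Nrp1 minus Nrp2 ranged from -2.98 to -2.09, secreted minus membrane semaphorins from -0.97 to -0.15, ephrin-B minus ephrin-A from -1.91 to -0.98, EphB minus EphA from -2.20 to -1.77, Slit minus Robo from 1.39 to 1.83 and netrin minus Unc5 from -4.13 to -2.58. Most of these alternatives could not turn a direction. The denominator, the TMM factors and the pseudocount keep the sign of a difference within a mouse. Leaving out a mouse cannot turn a difference that has the same sign in every mouse. For such differences only the settings of gene length could have changed the direction. A plexins minus B plexins turned to -0.46 without mouse 2, where Plxnb1 and Plxnb2 were lowest, and was up to 0.66 otherwise. None of these tests can pass 0.05 with 4 mice. The number of expressed members was 33, and 31 with the longest transcript as length, 37 in counts scaled by depth alone, 35 with the mean or with a cutoff of 0.5 TPM, 27 where no mouse had fewer than 10 counts, and 30 to 33 with a mouse left out. It fell to 21 when every mouse had to pass and to 19 with a cutoff of 5 TPM, both stricter by construction. Using the longest transcript moved the means of 7 of 33 members by more than their SD, among them Nrp2 (161 TPM), Sema5a (17.3 TPM), Plxna1 (4.25 TPM) and Sema3a (2.44 TPM). Counts scaled by depth alone moved those of 28. Such counts keep gene length in the value and have another unit than TPM, so the 28 do not measure how robust the means are. The comparisons are paired within mice, and with 1 group there is no block of replicate numbers across groups.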
